A study of Mus musculus with 12 samples.

Results

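RNA was sequenced from CD4+ T cells of mouse spleen that anti-CD3 antibody had activated (0.5 ug/mL, 3 days of culture), either alone or together with *L. acidophilus*, and the question here was which transcripts differ between these conditions. Anti-CD3 binds the CD3 chains of the T-cell receptor and starts activation without antigen, and *L. acidophilus* is a lactic acid bacterium that the study used as a probiotic. The comparison uses 6 of the 12 libraries of the series, 3 with anti-CD3 alone and 3 with *L. acidophilus*, chosen by their labels, and the 23585 of 45777 genes that were detected (1 count or more) in 3 or more of all 12 libraries. The other 6 libraries had received FK506 besides anti-CD3, 3 without and 3 with *L. acidophilus*. FK506 is tacrolimus, which blocks calcineurin and thereby NFAT. All groups carried anti-CD3, all cells were labelled wild type, and no unstimulated group is in the series, so every value is a difference on top of T-cell receptor stimulation. The labels give Balb/c mice aged 7 weeks, whereas the methods name B6 mice. H2-Ea-ps, a class II gene whose promoter is deleted in C57BL/6 mice, had between 589 and 2001 counts in each of the 6 libraries. The methods describe heat inactivation of the bacteria for the splenocyte cultures and give no bacterial dose for the sequenced cells. Neither source says whether the numbered libraries came from separate mice, so p-values measure the spread between these libraries, which may be technical.

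An activated CD4+ T cell takes up glucose and amino acids, divides and turns on cytokine genes. Its mTORC1 complex senses amino acids, the transcription factor ATF4 drives genes for making and importing amino acids, HIF-1 drives glycolytic genes, and SREBP and LXR factors set sterol synthesis and sterol export. Lineage factors (such as Tbx21 for Th1, Gata3 for Th2, Bcl6 for Tfh and Foxp3 for Treg cells) decide which cytokines are made.

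The libraries held between 50734019 and 64334919 counts, and replicate 1 was the deepest of each group. On the first principal component of the 6 libraries (39.9% of the variance) the 3 *L. acidophilus* libraries were at 12.3 to 27.9 and the 3 others at -40.6 to -3.32, with replicate 2 of anti-CD3 alone at the far end. The second component (33.8%) had replicate 1 of anti-CD3 alone and of *L. acidophilus* at 38.2 and 12.8, and the other libraries at -19.4 to -5.47. Cd4 was at 139, 142 and 149 FPKM (fragments scaled to transcript length and to library size) with anti-CD3 alone and at 168, 149 and 141 FPKM with *L. acidophilus*. The other defining T-cell markers, Cd3e and Cd3d, were above 128 FPKM in every library. Of 14 T-cell identity genes none passed the test described below, 5 had a positive and 9 a negative log2 fold change (median -0.20), and in pair 2 12 were lower. Their summed level was 2078 to 3013 FPKM with anti-CD3 alone and 2183 to 2403 FPKM with *L. acidophilus*. Cd8a stayed below 0.3 FPKM, and the natural killer markers Ncr1 and Klrb1c were at 0 in 5 of the 6 libraries. Cd8b1 was between 2.1 and 6.09 FPKM. The 8 natural killer and CD8 T-cell markers tested summed to 4.24 to 9.32 FPKM with anti-CD3 alone and 7.57 to 13.7 FPKM with *L. acidophilus*. Of these 8 none passed the test, 5 had a positive and 3 a negative log2 fold change, and the median was 0.48. Groups that did not overlap were found for 2 on the higher side (9.57% of all genes). The defining myeloid markers Lyz2, Csf1r, Itgam and Adgre1 were all below 0.3 FPKM, whereas the 19 tested markers of the myeloid and dendritic list summed to 74.8 to 141 FPKM and the 17 B-cell markers to 103 to 232 FPKM over the 6 libraries. Most of the myeloid and dendritic sum was Cst3, the protease inhibitor cystatin C that many cell types express, at 83.5, 136 and 74.8 FPKM with anti-CD3 alone and 101, 82 and 68.8 FPKM with *L. acidophilus*. The cells thus carried the markers of their label, together with transcripts of these other lists. The B-cell and the myeloid and dendritic lists are described further on.

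With *L. acidophilus*, 37 genes rose and 7 genes fell against anti-CD3 alone, which is 0.187% of the genes tested (0.157% higher and 0.0297% lower). The risers included Bcl6, Bcl2l11, Abcg1 and Arrdc4, and the genes that fell included Asns, Ddit4, Tgm2 and Hilpda. A gene is called here at a Benjamini-Hochberg adjusted p under 0.05 in edgeR's quasi-likelihood test of all 12 libraries and a change of at least 2-fold. All 44 called genes had groups that did not overlap, as did 18.2% of all genes tested (9.57% higher and 8.64% lower), and their adjusted p ranged from 0.006 to 0.05. Without the fold limit 54 genes passed the adjusted threshold (0.229%, 0.178% higher and 0.0509% lower), and members of gene lists are counted at this threshold. At an unadjusted p under 0.05 there were 3489 genes (14.8% of all, 7.54% higher and 7.25% lower), and the median log2 fold change of all genes was -0.0048.

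Same-numbered libraries of both groups shared part of their spread, and a fit that takes the number as a block called 69 genes (0.293%), 49 higher (0.208%) and 20 lower (0.0848%). Of these, 39 were among the 44, 30 were called only with the block, and 5 of the 44 were not called with it. The count also rested on single libraries. It ranged from 1 without replicate 1 or without replicate 2 of *L. acidophilus* to 169 without replicate 3 of anti-CD3 alone, it was 5 without replicate 2 of anti-CD3 alone, and it was 0 when the 6 libraries were fitted without the FK506 groups, where 2676 genes had an unadjusted p under 0.05. DESeq2 called 438 genes, among them all 44. In the plot of fold change against level the called genes that rose lie mostly at low levels and those that fell at high ones.

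**Figure D1:**
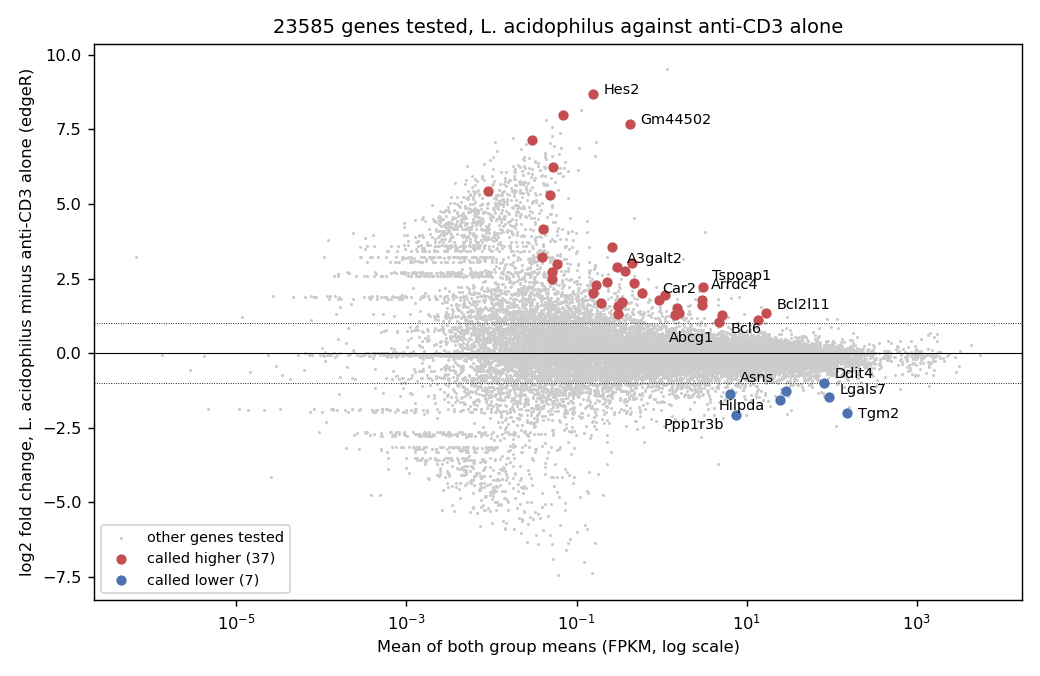
Log2 fold change of *L. acidophilus* against anti-CD3 alone (edgeR, vertical axis) for each gene tested with a mean above 0, against the mean of the group means in FPKM (log axis). Red points are the 37 genes called higher and blue points the 7 called lower, and dotted lines mark a 2-fold change. The called falls lie at group means of 9.1 FPKM or more with anti-CD3 alone, whereas 25 of the called rises stayed below 1 FPKM with *L. acidophilus*.

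The numbered pairs of libraries did not differ to the same degree. Among the 12075 genes with a group mean of at least 1 FPKM, 219 were at least 2-fold higher and 440 at least 2-fold lower with *L. acidophilus* in pair 1, 148 and 684 in pair 2, and 66 and 120 in pair 3. In all 3 pairs 28 genes were at least 2-fold higher and 41 at least 2-fold lower. Of the called genes, 32 of the 37 that rose and 4 of the 7 that fell passed 2-fold in each pair.

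Of the called rises, 12 reached a mean of 1 FPKM with *L. acidophilus*, and all 12 were called with the replicate block too. Some of them encode regulators of cell fate. Bcl6 (B cell leukemia/lymphoma 6, chr16:23965050-23988866 of GRCm38), the repressor that specifies follicular helper T cells and opposes Blimp-1, was at 2.96, 2.69 and 2.97 FPKM with anti-CD3 alone and at 8.93, 7.07 and 5.8 FPKM with *L. acidophilus*. The ratio within the numbered pairs was 2.75, 2.49 and 1.97, and the log2 fold change was 1.27 ± 0.21 (SE) with an adjusted p of 0.0367. Bcl2l11, which encodes the pro-apoptotic BH3-only protein Bim, was at 8.41, 6.79 and 12.2 FPKM and rose to 25.7, 25.2 and 23.1 FPKM. The 3 treated libraries lay close together and above all untreated ones (log2 fold change 1.35 ± 0.16 (SE), adjusted p = 0.0199). Tnfrsf26, a receptor of the TNF receptor superfamily, went from 8.16, 6.48 and 10.2 FPKM to 22.9, 16.2 and 16.9 FPKM (log2 fold change 1.10 ± 0.17 (SE), adjusted p = 0.033).

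A second set of these genes encodes transporters and enzymes. Abcg1, which exports cholesterol from cells and is a target of LXR, rose within a narrow spread, from 3.27, 2.57 and 3.07 FPKM to 6.79, 6.14 and 6.48 FPKM. Its log2 fold change of 1.04 ± 0.14 (SE) was the smallest of the called rises, and its adjusted p was 0.0204. Arrdc4, an arrestin-domain protein of the same family as the glucose-uptake regulator Txnip, was at 1.27, 1.55 and 1.44 FPKM and then at 5.52, 4.24 and 3.82 FPKM (log2 fold change 1.77 ± 0.23 (SE), adjusted p = 0.0204). The ratio of Arrdc4 within the numbered pairs was 5.02, 3.5 and 2.14, largest in pair 1. Car2, a cytosolic carbonic anhydrase that interconverts CO2 and bicarbonate, went from 1.09, 1.64 and 1.43 FPKM to 4.6, 4.75 and 4.33 FPKM, with an adjusted p of 0.0199. Pygm, the muscle isoform of glycogen phosphorylase, which releases glucose from glycogen, went from 0.509, 0.267 and 0.425 FPKM to 1.78, 1.5 and 1.12 FPKM, with an adjusted p of 0.0447. Ust, a sulfotransferase that modifies uronic acids of glycosaminoglycans, went from 0.742, 0.705 and 1.12 FPKM to 2.32, 2.33 and 2.27 FPKM, with an adjusted p of 0.0289.

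The remaining 4 of the 12 were Tspoap1, Gm20219, Fam110c and Neto2. Tspoap1, which encodes a binding partner of the mitochondrial protein TSPO, had the largest fold of the 12, from 1.54, 0.472 and 0.71 FPKM to 6.02, 4.71 and 4.78 FPKM (log2 fold change 2.22 ± 0.36 (SE), adjusted p = 0.0367). Replicate 1 was the highest library of either group for this gene. The predicted gene Gm20219 went from 0.344, 0.346 and 0.589 FPKM to 1.77, 1.87 and 1.63 FPKM, and Fam110c from 0.595, 0.755 and 0.909 FPKM to 1.81, 2.24 and 2.74 FPKM. Neto2, known as an auxiliary subunit of kainate receptors, went from 0.602, 0.794 and 1.03 FPKM to 2.25, 1.93 and 1.94 FPKM, with an adjusted p of 0.0319. In each of these genes the lowest treated library was above the highest untreated one.

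**Figure D2:**
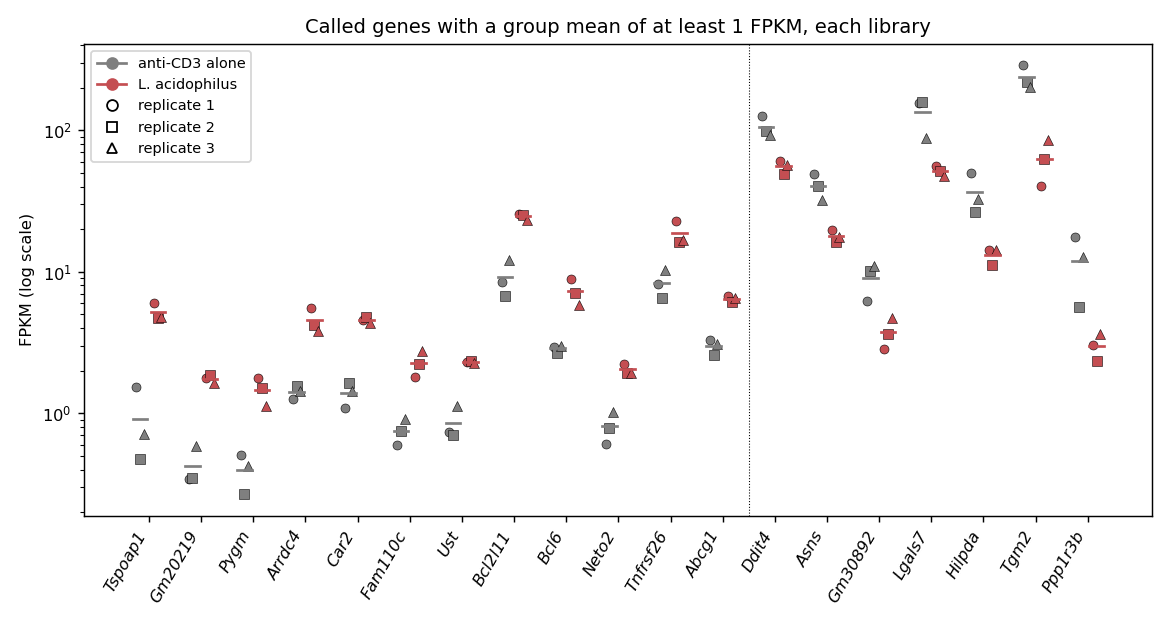
FPKM (log axis) of the 19 called genes with a group mean of at least 1 FPKM in each library, grey for anti-CD3 alone and red for *L. acidophilus*, with 1 symbol for each replicate number and horizontal lines at the group means. The 12 genes left of the dotted line rose and the 7 right of it fell, and in none of the 19 do the groups overlap.

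The other 25 called rises had means of 0.0184 to 0.96 FPKM with *L. acidophilus* and of 0 to 0.229 FPKM without it. A3galt2, an alpha-1,3-galactosyltransferase, had the smallest adjusted p of all genes (0.006), at 0.0735, 0.0491 and 0.0724 FPKM with anti-CD3 alone and 0.484, 0.566 and 0.524 FPKM with *L. acidophilus* (log2 fold change 2.89 ± 0.28 (SE)). It passed the threshold whichever of the 12 libraries was left out. Sh2d4b, an SH2-domain adaptor, went from 0.208, 0.0444 and 0.0829 FPKM to 1.03, 0.794 and 0.535 FPKM. Efnb2, which encodes the membrane-bound ligand ephrin B2, went from 0.0391, 0.0459 and 0.0635 FPKM to 0.473, 0.502 and 0.261 FPKM, and Msantd1 from 0.0392, 0.0222 and 0.0692 FPKM to 0.471, 0.488 and 0.479 FPKM. The smallest ratio of these 4 genes in any numbered pair was 3.63, for Efnb2.

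No count was found in any of the 3 libraries with anti-CD3 alone for 5 of these low genes. Hes2, a basic helix-loop-helix repressor of the Hes family, had 60, 56 and 38 counts in the *L. acidophilus* libraries. Against a floor of 3 counts in each untreated library, which covers counting error only, this is at least 17.1-fold higher. Gm4869 had 50, 27 and 20 counts (at least 10.5-fold), and Epha8, an ephrin receptor tyrosine kinase, had 14, 22 and 16 counts (at least 5.93-fold). The uncharacterised LOC115487163 had 9, 6 and 13 counts (at least 3.17-fold). The phospholipid scramblase gene Plscr4, with 6, 6 and 4 counts (at least 1.78-fold), was barely above the floor. Of these 5, Epha8, LOC115487163 and Plscr4 were not called with the replicate block (adjusted p = 0.0808, 0.0549 and 0.0523). The other called rises that did not pass with the block were Nxpe4 and 4933408B17Rik (adjusted p = 0.0522 and 0.0523). Gm44502, annotated as a readthrough transcript, had 0, 3 and 0 counts with anti-CD3 alone and 491, 176 and 101 with *L. acidophilus*, and reads of the genes it spans may be counted in it.

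The genes that fell were at higher levels, with means of 9.1 to 237 FPKM with anti-CD3 alone, and all 7 were called with the replicate block. Tgm2, transglutaminase 2, a calcium-dependent enzyme that cross-links proteins, was the most abundant, at 287, 220 and 203 FPKM with anti-CD3 alone and 40.3, 62.9 and 85.4 FPKM with *L. acidophilus*. The ratio was 0.13, 0.263 and 0.419 in the numbered pairs, and the log2 fold change was -2.00 ± 0.34 (SE) with an adjusted p of 0.0447. Lgals7, which encodes galectin-7, a beta-galactoside-binding lectin, fell from 155, 160 and 88 FPKM to 55.7, 51.5 and 47.2 FPKM (log2 fold change -1.48 ± 0.26 (SE), adjusted p = 0.0468). Replicate 3 of anti-CD3 alone was the untreated library nearest to the treated ones. It was the single one of 7 galectin genes past the threshold, and Lgals3bp and Lgals9 had log2 fold changes of -0.92 and -0.52 (adjusted p = 0.182 and 0.243).

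Ppp1r3b, which targets protein phosphatase 1 to glycogen and so promotes glycogen synthesis, had the largest fall. It was at 17.5, 5.67 and 12.7 FPKM with anti-CD3 alone and 3.06, 2.33 and 3.65 FPKM with *L. acidophilus* (log2 fold change -2.07 ± 0.33 (SE), adjusted p = 0.0367). Hilpda, a lipid droplet protein that inhibits triglyceride lipase and is known as a hypoxia-induced gene, fell from 50.0, 26.6 and 32.9 FPKM to 14.3, 11.2 and 14.1 FPKM (log2 fold change -1.56 ± 0.27 (SE), adjusted p = 0.0448). The long noncoding RNA Gm30892 fell from 6.17, 10.2 and 11 FPKM to 2.86, 3.61 and 4.7 FPKM, with an adjusted p of 0.0494.

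Asns and Ddit4, the other genes that fell, are members of a list of 23 ATF4 targets and amino acid genes, in which 2 genes fell, none rose and 22 had a negative log2 fold change. The median of the list was -1.01, against -0.0048 for all genes tested. An unadjusted p under 0.05 on the lower side was found for 21 of the 23 members (7.25% of all genes), and 18 had groups that did not overlap (8.64% of all genes on that side). With the replicate block 5 members fell (0.174% of all genes passed that way), Trib3, Nupr1 and Pck2 in addition, and with DESeq2 18 did (5.86% of all genes passed there, 2.96% higher and 2.9% lower). With 1 library left out, 13 members passed without replicate 3 of anti-CD3 alone, 2 or 3 without replicates 2 or 3 of FK506 or replicate 1 of the combination, and none without any of the other libraries, and the list median was between -0.87 and -1.21. All members except Sesn2 were lower with *L. acidophilus* in each numbered pair, with median log2 ratios of -1.11, -1.13 and -0.60.

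Asns, asparagine synthetase, was at 49, 40.7 and 32.2 FPKM with anti-CD3 alone and 19.8, 16.3 and 17.6 FPKM with *L. acidophilus* (log2 fold change -1.27 ± 0.19 (SE), adjusted p = 0.0297). Ddit4, which encodes REDD1, an inhibitor of mTORC1, fell from 127, 99 and 92 FPKM to 60.8, 49.2 and 57.1 FPKM (log2 fold change -1.01 ± 0.15 (SE), adjusted p = 0.0289). Trib3, a pseudokinase induced by ATF4, was at 17, 11.9 and 6.17 FPKM and 4.87, 3.24 and 3.55 FPKM, with an adjusted p of 0.0742 that became 0.0292 with the block. Nupr1, a stress-induced nuclear protein, was at 16.3, 4.93 and 4.05 FPKM and 2.93, 1.49 and 1.5 FPKM (adjusted p = 0.135, and 0.0286 with the block). Pck2, the mitochondrial phosphoenolpyruvate carboxykinase, was at 23.9, 17 and 11.2 FPKM and 11.4, 7.73 and 7.27 FPKM (adjusted p = 0.108, and 0.0341 with the block). In all these genes replicate 1 of anti-CD3 alone was the highest library of the 6.

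The serine synthesis enzymes of the same list did not pass the adjusted threshold. Phgdh, the first enzyme of that pathway, was at 95.6, 171 and 66.4 FPKM with anti-CD3 alone and 53.4, 43.5 and 42.4 FPKM with *L. acidophilus* (log2 fold change -1.35 ± 0.28 (SE), adjusted p = 0.0666). Psat1 and Psph, which complete the pathway, had log2 fold changes of -0.69 ± 0.14 (SE) and -0.93 ± 0.18 (SE) (adjusted p = 0.0702 and 0.0593), and Shmt2, which passes a carbon from serine to folate in mitochondria, had -0.95 ± 0.18 (SE) (adjusted p = 0.0512). Eif4ebp1, the translation repressor that mTORC1 phosphorylates, was at 76.7, 71.1 and 41 FPKM and 28, 27.4 and 30.8 FPKM, just outside the threshold at an adjusted p of 0.0512. Atf4 itself was at 132, 194 and 149 FPKM and 118, 127 and 128 FPKM (log2 fold change -0.43 ± 0.14 (SE), adjusted p = 0.2). Sesn2, a leucine sensor that is also an ATF4 target, was the member without a negative value (0.03 ± 0.18 (SE)). The proline and alanine enzymes Pycr1 and Gpt2, which are not on the list, were called lower with the block only (adjusted p = 0.0435 and 0.0493, against 0.0666 and 0.0928 without it).

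Of the 23 members, 18 had a promoter in the RefSeq table (GRCm38.p6, 250 bases before to 50 after the annotated start). The letters TGATGNAA, the core of the composite element that ATF4 binds with C/EBP partners, occurred on either strand in promoters of 7 of these 18 (Asns, Chac1, Nupr1, Pck2, Slc7a11, Trib3 and Vldlr), or 38.9%, against 3.19% of the 15025 tested genes with a promoter and 3.97% of all promoters in the table. This motif was searched after the values had been seen. The list was drawn up as ATF4 targets and amino acid genes, so this share describes the list and is no result about these samples. The promoters of 3 of the 4 members that carry these letters and passed the threshold with or without the block are printed, each on its coding strand with the matching letters in capitals. Positions count from the annotated start, with -1 as the base before it, and TTACATCA is the motif read on the other strand.
Asns, chr6:7693160-7693459, minus strand, match at -23: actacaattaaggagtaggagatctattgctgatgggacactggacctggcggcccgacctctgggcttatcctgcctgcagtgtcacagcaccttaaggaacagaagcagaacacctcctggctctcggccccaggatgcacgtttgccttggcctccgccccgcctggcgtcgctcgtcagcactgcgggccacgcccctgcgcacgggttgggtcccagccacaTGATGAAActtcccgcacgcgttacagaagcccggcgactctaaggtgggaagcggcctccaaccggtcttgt
Trib3, chr2:152344011-152344310, minus strand, match at 15: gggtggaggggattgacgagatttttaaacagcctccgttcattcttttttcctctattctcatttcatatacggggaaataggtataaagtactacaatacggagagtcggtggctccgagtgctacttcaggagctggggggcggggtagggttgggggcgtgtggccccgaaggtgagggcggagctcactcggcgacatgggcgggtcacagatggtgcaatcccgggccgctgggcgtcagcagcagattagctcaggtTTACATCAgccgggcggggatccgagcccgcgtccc
Pck2, chr14:55540016-55540315, plus strand, match at -103: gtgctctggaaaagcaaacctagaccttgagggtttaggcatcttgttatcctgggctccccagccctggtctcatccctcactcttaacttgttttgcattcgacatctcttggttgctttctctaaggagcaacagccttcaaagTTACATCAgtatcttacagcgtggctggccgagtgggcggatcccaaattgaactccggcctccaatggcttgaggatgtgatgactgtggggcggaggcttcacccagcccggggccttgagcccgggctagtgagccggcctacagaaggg
A match is a property of the letters only, and Ddit4, which fell, had none in this window.

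All 24 members of a list of glycolysis and hypoxia genes had a negative log2 fold change, and none passed the adjusted threshold, although 12 fell with DESeq2 (2.9% of all genes tested there). The median was -0.72, 22 of the 24 had an unadjusted p under 0.05 on the lower side (7.25% of all genes), and 14 had groups that did not overlap (8.64% of all genes on that side). The median log2 ratio was -0.98 in pair 1, -0.68 in pair 2 and -0.21 in pair 3, and with replicates 2 and 3 alone 10 members had an unadjusted p under 0.05. Slc16a3, the lactate exporter MCT4, came nearest to the threshold, at 109, 106 and 71.7 FPKM with anti-CD3 alone and 40.3, 33.3 and 47.1 FPKM with *L. acidophilus* (log2 fold change -1.33 ± 0.25 (SE), adjusted p = 0.0534). Slc2a1, the glucose transporter GLUT1, was at 116, 80.4 and 77.4 FPKM and 53.3, 47 and 56 FPKM (adjusted p = 0.0666). Hk2, hexokinase 2, was at 56.7, 30.9 and 41.7 FPKM and 20.2, 20.2 and 25 FPKM (adjusted p = 0.0793), and Vegfa, the angiogenic factor, at 28, 11.8 and 16 FPKM and 6.06, 6.31 and 8.92 FPKM (adjusted p = 0.0928).

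Some members of this list were set apart by 1 library. Slc2a3, the glucose transporter GLUT3, was at 209, 55.4 and 82.2 FPKM with anti-CD3 alone and 30.9, 46.2 and 56.9 FPKM with *L. acidophilus*, and Egln3, a prolyl hydroxylase induced by HIF, at 98.7, 20.1 and 34.9 FPKM and 18.2, 9.32 and 16.4 FPKM. In both, replicate 1 of anti-CD3 alone was more than 2-fold above any other library. Ldha, lactate dehydrogenase A, had groups that did not overlap, at 1330, 1977 and 1254 FPKM and 881, 1076 and 1109 FPKM, with an adjusted p of 0.182. Hif1a itself (log2 fold change -0.14 ± 0.15 (SE)) and Hk1 (-0.28 ± 0.15 (SE)) were the 2 members with an unadjusted p above 0.05. In pair 3 the median was nearest to 0, and 22 of the 24 members were lower in it.

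The letters ACGTG, the core of the hypoxia response element, occurred on either strand in promoters of 17 of the 23 list members found in the table (73.9%), against 26.8% of the tested genes with a promoter. It occurred in 7 of the 18 ATF4 list members with a promoter (38.9%), in 9 of the 23 called rises with one (39.1%) and in 3 of the 5 called falls with one (60%). This motif, too, was searched after the values had been seen. The glycolysis list was drawn up to hold hypoxia genes, so its share describes the list and is no result about these samples. The list of glycolysis and hypoxia genes had 33 promoters for its 23 genes. The letters overlap the E-box CACGTG, which was found in 4 of the 23 and in 10.3% of the tested genes with a promoter. Hilpda, which fell, and Slc16a3 carry ACGTG close to the start, and Arrdc4, which rose, carries CACGTG, and their promoters are printed to show where.
Slc16a3, chr11:120948817-120949116, plus strand, ACGTG at -27 and -14: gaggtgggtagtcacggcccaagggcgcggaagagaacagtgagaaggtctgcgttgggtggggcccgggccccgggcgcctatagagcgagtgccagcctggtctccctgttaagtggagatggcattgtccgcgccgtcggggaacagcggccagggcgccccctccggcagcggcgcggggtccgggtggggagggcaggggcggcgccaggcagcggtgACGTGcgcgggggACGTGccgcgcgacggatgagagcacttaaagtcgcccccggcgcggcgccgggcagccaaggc
Hilpda, chr6:29272376-29272675, plus strand, ACGTG at -43: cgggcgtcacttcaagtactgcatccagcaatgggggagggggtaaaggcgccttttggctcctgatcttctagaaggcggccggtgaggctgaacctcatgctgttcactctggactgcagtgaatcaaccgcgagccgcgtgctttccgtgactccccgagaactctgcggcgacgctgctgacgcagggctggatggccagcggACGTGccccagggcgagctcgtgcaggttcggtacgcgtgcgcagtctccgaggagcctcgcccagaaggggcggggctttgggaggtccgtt
Arrdc4, chr7:68749189-68749488, minus strand, CACGTG at -193: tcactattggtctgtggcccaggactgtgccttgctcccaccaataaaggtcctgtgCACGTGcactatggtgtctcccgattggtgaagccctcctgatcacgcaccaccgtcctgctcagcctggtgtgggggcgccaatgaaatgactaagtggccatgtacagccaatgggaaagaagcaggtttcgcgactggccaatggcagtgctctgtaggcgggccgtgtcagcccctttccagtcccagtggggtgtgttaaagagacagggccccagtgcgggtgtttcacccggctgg
Among the called rises, 23 of 37 had a promoter in the table, and CACGTG was found in 4 of them (Arrdc4, Bcl6, Epha8 and Nxpe4), the TATA letters TATAAA in 2 (Efnb2 and Nxpe4), the AP-1 letters TGANTCA in 1 (Fam110c) and the STAT letters TTCNNNGAA in 1 (Bcl6). Of the tested genes with a promoter, 10.9%, 7.17% and 8.59% hold these 3 motifs on either strand. The NF-kB letters GGANTTTCC and the CRE letters TGACGTCA, which 1.58% and 2.96% hold, were not in these windows.

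**Figure D3:**
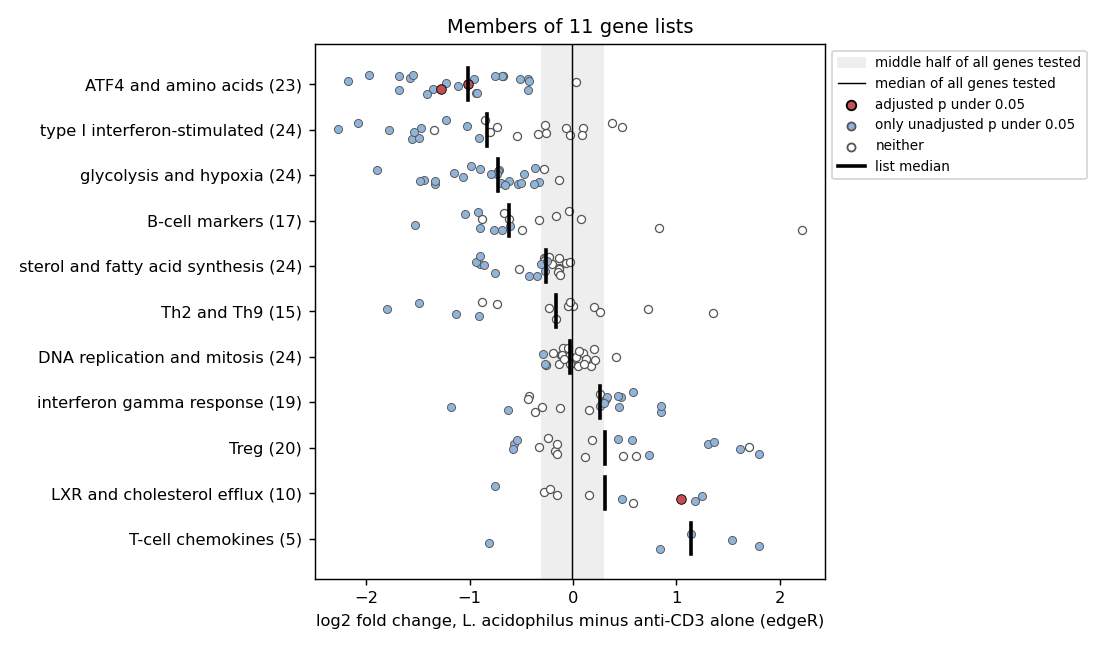
Log2 fold change of *L. acidophilus* against anti-CD3 alone (edgeR, horizontal axis) for the members of 11 gene lists, with the number of members tested in brackets; black bars are list medians, red points passed an adjusted p of 0.05 and light blue points only an unadjusted one. The ATF4 list has its median at -1.01 and the glycolysis and hypoxia list at -0.72, the T-cell chemokines at 1.15, and DNA replication and mitosis at -0.03, close to that of all genes.

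Sterol synthesis and sterol export genes had medians of opposite sign. In the list of 24 sterol and fatty acid synthesis genes, which SREBP factors drive, none passed the adjusted threshold, all 24 had a negative log2 fold change (median -0.26), 10 had an unadjusted p under 0.05 on the lower side (7.25% of all genes) and 13 had groups that did not overlap (8.64%). The 10 became 6 without replicate 1 of anti-CD3 alone or with replicates 2 and 3 alone, 5 without TMM factors and 4 with limma on either scale, and in pair 2 9 of the 24 were higher. Mvd, the mevalonate decarboxylase, was at 32.7, 31.7 and 21.1 FPKM with anti-CD3 alone and 15.2, 15.3 and 16.9 FPKM with *L. acidophilus* (log2 fold change -0.94 ± 0.19 (SE), adjusted p = 0.062). Fdps and Lss, which make farnesyl pyrophosphate and lanosterol, had -0.90 ± 0.21 (SE) and -0.86 ± 0.22 (SE) (adjusted p = 0.0913 and 0.114). Of 10 LXR and cholesterol efflux genes, Abcg1 rose, and Abca1, the other main cholesterol exporter, was at 0.69, 0.847 and 1.57 FPKM and 2.08, 2.54 and 2.77 FPKM, with an adjusted p of 0.0582 that became 0.0341 with the replicate block. Mylip, an LXR target that degrades the LDL receptor, was at 0.48, 0.627 and 0.796 FPKM and 1.23, 1.75 and 1.8 FPKM with groups that did not overlap (adjusted p = 0.0928), and Apoe at 3.72, 2.59 and 3.35 FPKM and 4.25, 4.48 and 4.45 FPKM (adjusted p = 0.259). Of the 10, 6 had a positive and 4 a negative value, among the latter the desaturase Scd1, at 48.6, 31.3 and 37.7 FPKM and 15.2, 29 and 29.8 FPKM (log2 fold change -0.75 ± 0.32 (SE), adjusted p = 0.299). The summed level of the 10 was 162 to 186 FPKM with anti-CD3 alone and 149 to 168 FPKM with *L. acidophilus*. Their median log2 fold change was 0.31, and it was 0.0041 without replicate 1 of *L. acidophilus*.

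Of the lineage factors Tbx21, Gata3, Bcl6 and Foxp3, Bcl6 was the one that rose, and it was the single member of 13 Tfh genes to pass the threshold. Cxcr5, the Tfh homing receptor, had a log2 fold change of -0.66 ± 0.24 (SE) (adjusted p = 0.232), the Tfh cytokine Il21 had -0.22 ± 0.38 (SE), and Cd40lg, the helper ligand for B cells, had 0.43 ± 0.22 (SE) (adjusted p = 0.378). The median of the Tfh list was 0.08. Tbx21 was at 35.2, 49.8 and 33.8 FPKM and 35.6, 39.2 and 39 FPKM, and Gata3 at 88.5, 74.8 and 83.9 FPKM and 90.5, 86 and 84.4 FPKM. The groups of both genes overlapped.

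Foxp3, the factor of regulatory T cells, was at 4.45, 4.73 and 6.2 FPKM with anti-CD3 alone and 24.7, 7.53 and 7.76 FPKM with *L. acidophilus*. Every treated library was above every untreated one, replicate 1 stood far above the others, and the log2 fold change was 1.31 ± 0.40 (SE) with an adjusted p of 0.166. Ikzf2, which encodes Helios, also had its highest library in replicate 1, at 1.03, 0.764 and 1.2 FPKM and 6.55, 1.62 and 1.78 FPKM (adjusted p = 0.137), as did Itgb8, a subunit of the integrin that activates TGF-beta, at 0.747, 0.488 and 0.883 FPKM and 3.59, 0.979 and 1.18 FPKM (adjusted p = 0.214). Nrp1, neuropilin 1, was at 1.03, 1.17 and 2.07 FPKM and 2.69, 2.41 and 2.32 FPKM (adjusted p = 0.147). None of the 20 Treg genes passed the threshold, 7 had an unadjusted p under 0.05 on the higher side (7.54% of all genes) and 3 on the lower (7.25%). The median of the list was 0.31. Without replicate 1 of *L. acidophilus* it turned to -0.44, with 3 members on the higher and 5 on the lower side, and with replicates 2 and 3 alone it was -0.026, with 2 and 6. In these bulk samples more cells of a type and more RNA per cell cannot be told apart. Of 13 TGF-beta ligands, receptors and Smads none passed, 9 had a positive and 4 a negative value, and the median was 0.10. Groups that did not overlap were found for 4 on the higher side (9.57% of all genes) and 1 on the lower (8.64%). The 4, Smad2, Tgfbr1, Smad4 and Skil, had log2 fold changes of 0.31 ± 0.089 (SE), 0.59 ± 0.18 (SE), 0.30 ± 0.095 (SE) and 0.37 ± 0.13 (SE), with adjusted p between 0.141 and 0.224.

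**Figure D4:**
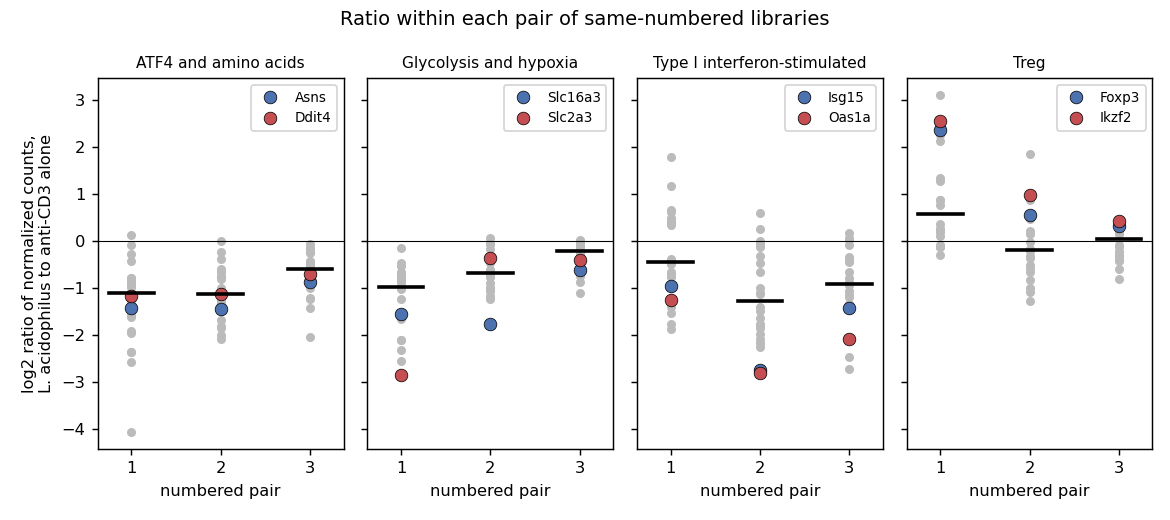
Log2 ratio of normalized counts, *L. acidophilus* to anti-CD3 alone, within each pair of same-numbered libraries for the members of 4 gene lists; grey points are genes, black bars list medians and coloured points the genes named. Pair 1 shows the highest points of Foxp3 and Ikzf2 (5.16-fold and 5.93-fold on the linear scale). On the log2 scale the glycolysis and hypoxia median is -0.98 in pair 1 and -0.21 in pair 3, and the ATF4 medians stay below -0.5 in all 3 pairs.

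Among 13 Th1 genes Lgals7 fell, and with the replicate block Ccl5 did so as well. Ifng was at 3.83, 2.5 and 3.45 FPKM with anti-CD3 alone and 26, 5.91 and 6.42 FPKM with *L. acidophilus*, with ratios of 6.28, 2.17 and 1.85 in the pairs and an adjusted p of 0.179. Cxcr3, the Th1 chemokine receptor, was at 4.95, 6.37 and 7.1 FPKM and 11, 9.11 and 9.55 FPKM with groups that did not overlap (adjusted p = 0.103). Il12rb2, the signalling chain of the IL-12 receptor, was at 44.6, 42.3 and 69.8 FPKM and 17.1, 26.8 and 34.7 FPKM, on the lower side (adjusted p = 0.183). Of 13 cytotoxic effectors none passed. Gzmb, granzyme B, was lower in every treated library, at 425, 501 and 415 FPKM and 178, 208 and 275 FPKM, with an adjusted p of 0.365, and Gzmm, granzyme M, was on the other side at 0.297, 0.294 and 0.273 FPKM and 0.648, 0.584 and 0.67 FPKM (adjusted p = 0.12).

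None of 15 Th2 and Th9 genes passed the threshold. Il13 was at 364, 241 and 127 FPKM with anti-CD3 alone and 128, 41.2 and 55.4 FPKM with *L. acidophilus*, with ratios of 0.325, 0.158 and 0.433 in the pairs (log2 fold change -1.80 ± 0.45 (SE), adjusted p = 0.109). Il3 and Csf2, growth factors of myeloid cells, had log2 fold changes of -0.90 ± 0.34 (SE) and -1.49 ± 0.64 (SE) (adjusted p = 0.249 and 0.309). Il4 and Il5, at 0.21 and -0.73, had overlapping groups. Of 17 Th17 genes none passed, 2 had an unadjusted p under 0.05 on each side (7.54% of all genes higher and 7.25% lower), and the median was -0.09. The smallest p was that of Slc26a10, on the lower side, whose values are given further on. Il23r, the receptor for IL-23, was at 0.183, 0.0897 and 0.148 FPKM and 0.664, 0.211 and 0.236 FPKM, and Rora at 0.667, 0.386 and 0.571 FPKM and 1.62, 0.815 and 0.847 FPKM, both with groups that did not overlap and adjusted p of 0.273 and 0.244. Batf, an AP-1 factor that Th17 cells need, was at 218, 402 and 139 FPKM and 176, 139 and 143 FPKM, and replicate 2 of anti-CD3 alone stood apart from the other libraries.

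None of the 5 T-cell chemokines passed the threshold, 4 lay on the higher side and 1 on the lower, and each had groups that did not overlap, as did 18.2% of all genes. Ccl1, a ligand of CCR8, was at 5.62, 6.6 and 9.66 FPKM with anti-CD3 alone and 33.1, 21.2 and 12.5 FPKM with *L. acidophilus* (log2 fold change 1.54 ± 0.33 (SE), adjusted p = 0.0754). Ccl3 and Ccl4, chemokines that attract T cells and myeloid cells, had 1.15 ± 0.33 (SE) and 0.85 ± 0.27 (SE) (adjusted p = 0.145 and 0.178), and Xcl1, a ligand for cross-presenting dendritic cells, had 1.80 ± 0.60 (SE) (adjusted p = 0.2). Ccl5, which also attracts T cells, was at 22.6, 18.3 and 22.2 FPKM and 13, 10.7 and 14.3 FPKM, with an adjusted p of 0.0709 that became 0.0464 with the replicate block.

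The 2 lists of interferon responses had medians of opposite sign. Of 24 type I interferon-stimulated genes none passed the threshold, 10 had an unadjusted p under 0.05 on the lower side (7.25% of all genes) and none on the higher, 9 had groups that did not overlap (8.64% of all genes on the lower side), and the median was -0.83. With DESeq2 6 of 23 fell (2.9% of all genes), and in pair 1 10 of the 24 were higher. The summed level of the 24 overlapped between the groups, at 424 to 1219 FPKM with anti-CD3 alone and 454 to 541 FPKM with *L. acidophilus*. Isg15, a ubiquitin-like protein, was at 16.6, 41.5 and 29 FPKM with anti-CD3 alone and 9.25, 6.73 and 10.9 FPKM with *L. acidophilus* (log2 fold change -1.78 ± 0.43 (SE), adjusted p = 0.0965). Oas1a and Oas3, sensors of double-stranded RNA, had -2.08 ± 0.55 (SE) and -1.56 ± 0.41 (SE) (adjusted p = 0.119 and 0.117), and Oasl1 had -1.49 ± 0.37 (SE) (adjusted p = 0.108). Their levels also varied within the untreated group, as for Ifi44 at 1.57, 3.72 and 7.92 FPKM. Of 19 interferon gamma response genes, 10 had an unadjusted p under 0.05 on the higher side (7.54% of all genes) and 2 on the lower (7.25%), and the median was 0.26, with none past the adjusted threshold. The 10 became 3 without replicate 1 of anti-CD3 alone, 5 and 6 without replicates 3 and 1 of *L. acidophilus*, and 4 with replicates 2 and 3 alone. Gbp4, an interferon-induced GTPase, was at 34.1, 27.5 and 44.9 FPKM and 59.2, 50.0 and 54.4 FPKM (adjusted p = 0.115), Gbp2 at 52.9, 88.5 and 101 FPKM and 104, 180 and 177 FPKM (adjusted p = 0.207), and Irf1 at 58.7, 59.9 and 65.9 FPKM and 86, 73.8 and 71.2 FPKM (adjusted p = 0.219). Gbp2b, which is not on the list, was at 53.2, 62.3 and 91.7 FPKM and 119, 180 and 181 FPKM and passed only with the block (adjusted p = 0.103, and 0.0376 with it). Reads of the near-identical Gbp genes may be split between them.

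None of 19 receptors and adaptors by which cells sense bacteria passed the threshold (median 0.002). On the lower side 3 had an unadjusted p under 0.05 (7.25% of all genes), and on the higher side 0 did (7.54%). Tirap and Ripk2, adaptors of Toll-like receptors and of NOD receptors, and Nod2, a sensor of muramyl dipeptide, had unadjusted p under 0.05 on the lower side, with log2 fold changes of -0.88 ± 0.25 (SE), -0.70 ± 0.25 (SE) and -0.73 ± 0.22 (SE) (adjusted p = 0.143, 0.223 and 0.165). The 15 NF-kB subunits and feedback targets had a median of -0.06, with Rela at 0.30 ± 0.10 (SE) and Traf1 at -0.49 ± 0.17 (SE) (adjusted p = 0.218 and 0.209). Of 24 innate cytokines and chemokines none passed. Il12b, the p40 chain of IL-12 and IL-23, had 0, 0 and 0 counts with anti-CD3 alone and 20, 24 and 18 counts with *L. acidophilus*, which is at least 6.99-fold higher, with an adjusted p of 0.0593 (0.0776 with the block). Il27, the p28 chain of IL-27, was at 3.76, 1.59 and 1.09 FPKM and 0.319, 0.528 and 0.743 FPKM (adjusted p = 0.179), and Il6 at 0.408, 0.371 and 0.348 FPKM and 1.35, 0.219 and 0.502 FPKM. Of the myeloid and dendritic markers, C1qa, C1qc and Siglech were at 0 in all 6 libraries, and Csf1r, Fcgr1 and C1qb at 0 in all untreated and in 2 of the 3 treated ones. Of the 19 markers tested 13 had a positive and 3 a negative log2 fold change, with a median of 0.66 and none past the threshold, and in pair 1 14 were higher and 2 lower. Their summed level was 80.4 to 141 FPKM with anti-CD3 alone and 74.8 to 113 FPKM with *L. acidophilus*, and Adgre1, which encodes F4/80, was at 0.0198, 0.0266 and 0.0358 FPKM and 0.274, 0.172 and 0.0619 FPKM. The part of such cells in the cytokine values was not tested.

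None of 21 early response genes of T-cell receptor signalling passed the threshold, and the median was 0.0068. An unadjusted p under 0.05 was found for 5 on the lower side (7.25% of all genes) and 1 on the higher (7.54%). Ier3, Batf3 and Junb were on the lower side with groups that did not overlap. Ier3 was at 27.7, 14.5 and 19.4 FPKM with anti-CD3 alone and 6.81, 9.68 and 10.3 FPKM with *L. acidophilus* (adjusted p = 0.0534), and Batf3 at 47.6, 61.7 and 30.5 FPKM and 10.6, 10.2 and 15.7 FPKM (log2 fold change -2.03 ± 0.42 (SE), adjusted p = 0.0702). Junb had a log2 fold change of -0.78 ± 0.17 (SE) (adjusted p = 0.0743). Of 16 naive T-cell genes none passed, 8 had a positive and 8 a negative value, and the median was -0.031. In pair 1 11 of the 16 were higher, whereas 10 were lower in pair 2 and 13 in pair 3. An unadjusted p under 0.05 was found for Klf2 and Foxp1 on the higher side (7.54% of all genes). On the lower side (7.25%) it was found for Treml2, at -0.74 ± 0.34 (SE) (adjusted p = 0.327). Klf2, a factor of quiescent T cells that maintains homing receptors, was at 0.995, 1.34 and 3.11 FPKM and 9.65, 11.3 and 8.49 FPKM (log2 fold change 2.38 ± 0.47 (SE), adjusted p = 0.0614). Foxp1, another quiescence factor, was at 7.63, 11.3 and 16.7 FPKM and 18.8, 21.6 and 21 FPKM (adjusted p = 0.132). Of 10 inhibitory receptor genes, Havcr2 (0.73 ± 0.20 (SE)), Lag3 (0.43 ± 0.14 (SE)), Tox (0.73 ± 0.31 (SE)) and Tigit (0.44 ± 0.19 (SE)) had unadjusted p under 0.05 on the higher side (7.54% of all genes), with adjusted p between 0.132 and 0.319. Of the 10, 6 had a positive and 4 a negative value, with a median of 0.12. In pair 1 9 were higher and 1 lower, whereas in each of pairs 2 and 3 5 were higher and 5 lower.

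Of 20 JAK, STAT and SOCS genes none passed and 18 had negative values (median -0.20). Stat2 was at -0.58 ± 0.17 (SE) (adjusted p = 0.148), the cytokine Osm at -0.79 ± 0.26 (SE) (adjusted p = 0.199) and Socs3 at -0.79 ± 0.32 (SE) (adjusted p = 0.27). Jak1, a receptor-associated kinase, had a positive value of 0.29 ± 0.13 (SE) (adjusted p = 0.305). The 24 DNA replication and mitosis genes lay between -0.29 and 0.42, with a median of -0.03 and a smallest adjusted p of 0.304. Of them 2 had an unadjusted p under 0.05 on the lower side (7.25% of all genes). The 20 Myc and ribosome biogenesis genes had a median of -0.21 and the 17 unfolded protein response genes one of -0.15, and none of either passed. None of the 10 heat shock and metallothionein genes had an unadjusted p under 0.05. No member passed the adjusted threshold among 13 IL-2 and common gamma chain genes (median -0.17), 17 genes of TNF family costimulation (0) and 19 homing receptors and integrins (0.25), where Itga6 and Cxcr4, the receptor of CXCL12, were at 0.60 ± 0.20 (SE) and 0.54 ± 0.20 (SE) with groups that did not overlap (adjusted p = 0.199 and 0.237).

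Of the 17 genes that the study's text names, 1 passed, Lgals7, and this list was drawn up by the study from these samples for the combination with FK506, a comparison other than the one made here. On the higher side Foxp3, Ikzf2, Nrp1, Itgb8 and Nt5e had unadjusted p under 0.05 (7.54% of all genes), and on the lower side Lgals7, Eif4ebp1, Slc26a10, Il13 and Lif (7.25%). Slc26a10 was at 5.34, 2.59 and 2.15 FPKM with anti-CD3 alone and 1.23, 1.35 and 1.43 FPKM with *L. acidophilus* (adjusted p = 0.0726). Lif, a cytokine of the IL-6 family, was at 102, 41.9 and 58.6 FPKM and 51.2, 27 and 36.1 FPKM (adjusted p = 0.258), and Nt5e, which encodes CD73, at 0.482, 0.123 and 0.295 FPKM and 2.48, 0.492 and 0.381 FPKM (adjusted p = 0.248).

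Most B-cell transcripts had negative log2 fold changes with *L. acidophilus*, by an amount that rested in part on 1 library. Of 17 B-cell markers none passed the threshold, 7 had an unadjusted p under 0.05 on the lower side (7.25% of all genes), 4 had groups that did not overlap (8.64%) and the median was -0.62. Without replicate 1 of anti-CD3 alone the median was -0.26, with 2 markers at an unadjusted p under 0.05 on the lower side and 1 on the higher. Cd79a, a signalling chain of the B-cell receptor, was at 15.9, 11.9 and 8.42 FPKM with anti-CD3 alone and 8.04, 7 and 5.68 FPKM with *L. acidophilus* (adjusted p = 0.144). The summed level of the 17 genes overlapped between the groups, from 125 to 232 FPKM with anti-CD3 alone and from 103 to 204 FPKM with *L. acidophilus*. The 10 MHC class II and antigen loading genes, which B cells express, had a median of -0.52, with 2 at an unadjusted p under 0.05 on the lower side (7.25% of all genes). The part of these cells in the other differences was not tested.

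Besides the 44 genes, 10 passed the adjusted threshold at less than 2-fold. Arid5a, an RNA-binding protein that stabilises cytokine transcripts, fell from 73.5, 63.9 and 53.4 FPKM to 36, 30.9 and 35 FPKM. Slc37a4, the glucose-6-phosphate transporter, fell from 14.7, 13.8 and 13.1 FPKM to 7.92, 7.87 and 8.43 FPKM, Pcca, a subunit of propionyl-CoA carboxylase, from 8.16, 7.8 and 7.94 FPKM to 4.65, 5.21 and 4.63 FPKM, and Irs2, an adaptor of insulin and IL-4 receptors, from 8.84, 7.08 and 9.98 FPKM to 5.8, 4.74 and 5.69 FPKM. Mical1, an actin-oxidising enzyme, also fell (log2 fold change -0.64 ± 0.11 (SE)). The chromatin proteins Hmgn2, Epc1 and Zbtb2 rose, with log2 fold changes of 0.58 ± 0.10 (SE), 0.72 ± 0.11 (SE) and 0.72 ± 0.12 (SE), as did Gm41844 and LOC115488503, and Hmgn2 no longer passed with the block (adjusted p = 0.0522). Just inside the adjusted threshold was Rin1, and just outside it, at 0.0504, was Trib2, a relative of Trib3, at 2.43, 1.23 and 2.16 FPKM and 15.6, 6.54 and 6.88 FPKM (0.0286 with the block).

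The same bacteria were also given on top of FK506, in libraries that this comparison does not use for its group means, although they enter the estimate of the spread and carry the same replicate numbers. There, 32 of the 37 genes that rose had a positive log2 fold change, and 21 rose, against 8.18% of all genes tested on that side. Of the 7 that fell, 6 had a negative value and 4 fell, against 10.9% of all genes. On top of FK506 the median log2 fold change was 1.12 for the 37 and -0.92 for the 7, beside 0.03 for all genes. Their medians without FK506, 2.27 and -1.48, are those of genes selected on that contrast, so the sizes are not compared. Hes2 was at 0, 0 and 0.0184 FPKM with FK506 and 0.368, 0.643 and 0.501 FPKM with the combination, and it rose there too (adjusted p = 0.00167). Arrdc4 rose by 1.71 ± 0.23 (SE) on the log2 scale (adjusted p = 0.000631), Abcg1 by 0.96 ± 0.14 (SE) (adjusted p = 0.00109) and Efnb2 by 2.03 ± 0.28 (SE) (adjusted p = 0.000813). Tgm2 had a log2 fold change of -1.67 ± 0.34 (SE) (adjusted p = 0.00621), Lgals7 of -1.84 ± 0.27 (SE) (adjusted p = 0.00102) and Hilpda of -0.98 ± 0.27 (SE) (adjusted p = 0.0241).

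The difference between the effect with and without FK506 passed an adjusted p of 0.05 for 13 of the 44 genes, against 4.35% of all genes tested, and for 15 with the replicate block (6.69% of all genes). The 44 genes were chosen for a large effect without FK506, and the same libraries enter this difference, so neither its count nor its direction among them is read as a result. Bcl2l11, at 27.7, 33.4 and 26.8 FPKM with FK506 and 28.8, 32.4 and 34.2 FPKM with the combination, had 0.035 ± 0.16 (SE) there (adjusted p of the difference = 0.0113). Car2 had -0.05 ± 0.19 (SE) (adjusted p of the difference = 0.00868). Neto2 rose without FK506 and fell on top of it (-1.01 ± 0.19 (SE), adjusted p of the difference = 0.00447). Ddit4 and Ppp1r3b, which fell without FK506, had -0.16 ± 0.15 (SE) and 0.46 ± 0.32 (SE) on top of it (adjusted p of the difference = 0.0433 and 0.0142). For Bcl6 the value on top of FK506 was 0.34 ± 0.20 (SE), and the difference had an adjusted p of 0.093. The FK506 groups also carried more B-cell transcripts, with a summed level of the 17 markers of 1004 to 2027 FPKM with FK506 and 831 to 987 FPKM with the combination. The summed level of the 19 myeloid and dendritic markers was 78.8 to 147 FPKM with FK506 and 180 to 312 FPKM with the combination, where 8 of them were higher and 1 lower at an adjusted p under 0.05 (8.18% and 10.9% of all genes). The 9 erythroid, platelet and stromal markers tested summed to 17.1 to 26.0 FPKM with FK506 and 28.2 to 33.2 FPKM with the combination, against 4.40 to 10.1 FPKM without FK506. The part of these cells in the values of the FK506 groups was not tested.

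**Figure D5:**
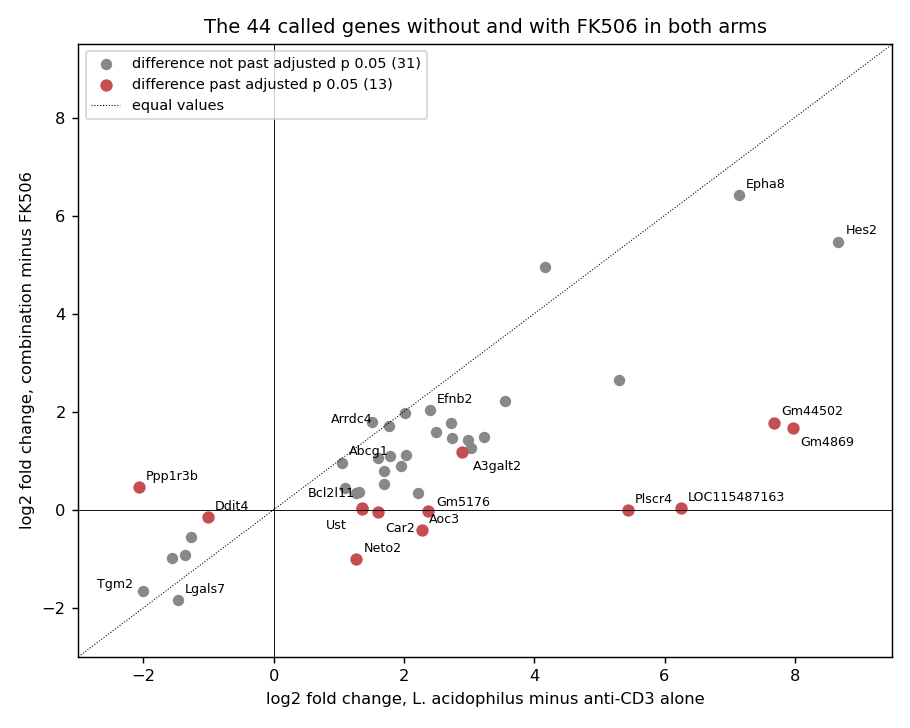
Log2 fold change of the 44 called genes for *L. acidophilus* against anti-CD3 alone (horizontal axis) and for the combination against FK506 (vertical axis), each from 3 libraries a group; red points are the 13 genes whose difference passed an adjusted p of 0.05 and the dotted line marks equal values. Values for genes without counts in a group, such as Hes2 and Epha8, depend on the prior count of the fit. Of the 37 rises 32 lie above 0 on the vertical axis, and Neto2 lies below it. The genes were selected on the horizontal axis, so smaller values on the vertical one are no result.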

How the data were processed

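The samples were 12 RNA-seq libraries of activated mouse CD4+ T cells, 3 in each of 4 groups taken from the labels. The authors deposited 1 table of 45777 genes with read counts as whole numbers, FPKM values and 12 unused columns of TPM values. Per the labels, the submitters' processing notes name bcl2fastq 2.20.0, Trimmomatic, HISAT2 2.1.0, StringTie 2.1.3b and the mouse build GRCm38. The deposited counts are not normalized, and the deposited FPKM values are scaled by the authors to transcript length and library size and do not show the quantile normalization that the methods name.

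For the 23585 genes detected in 3 or more libraries, counts were tested with edgeR 4.0.16 (R 4.3.3), with TMM factors, 1 mean per group over all 12 libraries and Benjamini-Hochberg adjustment. A gene was called at an adjusted p under 0.05 and a change of at least 2-fold, and each standard error was derived from the log2 fold change and its F statistic. Levels are FPKM of single libraries in the order of replicates 1, 2 and 3. A fold against a group without counts was computed against 3 counts in each library. In simulated counts of this comparison for 23270 genes, the test recovered 63 of 100 genes changed 2-fold and 91 of 100 changed 4-fold, with 6 other genes called.

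Same-numbered libraries of the 2 groups deviated together from their group means, with correlations of 0.501, 0.34 and 0.269 over 16953 genes. Differently numbered libraries had correlations between -0.472 and 0.155. Replicate 3 of anti-CD3 alone with replicate 2 of *L. acidophilus* had 0.155, and replicate 2 with replicate 3 had 0.113, so these numbers are less clearly paired than replicate 1. The numbers were taken to pair the samples, although no label says what they share. The replicate block is given where it changes a call.

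The text names the 20 largest rises and 10 largest falls among called genes with a mean of at least 1 FPKM (fewer were called), of each of 36 gene lists described the members past the threshold and otherwise up to 4 with the smallest p, the genes of the study's text, and markers near 0. Other genes named were chosen after their values were seen, and some items are not reported here. The comparison, the gene lists and the motifs were chosen with earlier results of these data known. Promoter letters come from RefSeq (GRCm38.p6) and figures from matplotlib 3.10.9 in Python 3.11.15. The alternatives were other sets of libraries, the block, DESeq2 1.42.0, limma 3.58.1 on log2(FPKM + 1) and log2(FPKM + 0.1), no TMM factors, other filters and thresholds, and the omission of each library.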

Additional observations from a re-analysis of the deposited data

Results flagged for a closer look

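Of 153 genes examined, 34 had an effect of *L. acidophilus* that differed with and without FK506 at an adjusted p under 0.05 of edgeR's interaction term, 20 in the negative and 14 in the positive direction, and 33 of them passed with the replicate block as well. Of all genes tested 4.35% passed (6.69% with the block), and most of the 153 were chosen after their values were seen, so the count is a description. The exception was Isg15, with 0.0577, and 7 genes passed with the block only (Tspoap1, Il5, Trib2, Gbp2, Gpt2, Sh2d4b and Trib3, adjusted p from 0.0107 to 0.0451). The values given are differences of log2 fold changes, the effect on top of FK506 minus that without it, in 3 libraries a group. Genes past the threshold were chosen for their effect without FK506, and the same libraries enter the difference. Its direction among them is therefore not read as a result. The part of the B-cell and myeloid transcripts of the FK506 groups in these values was not tested.

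Among the genes that rose without FK506 the difference was found for A3galt2 by -1.71 (adjusted p = 0.0255), Car2 by -1.66 (adjusted p = 0.00868), Ust by -1.34 (adjusted p = 0.0232), Bcl2l11 by -1.31 (adjusted p = 0.0113), Gm5176 by -2.39 (adjusted p = 0.0217), Aoc3 by -2.69 (adjusted p = 0.012) and Neto2 by -2.28 (adjusted p = 0.00447). It was also found for the low genes Gm4869 by -6.31 (adjusted p = 0.0225), Gm44502 by -5.90 (adjusted p = 0.0243), LOC115487163 by -6.22 (adjusted p = 0.0219) and Plscr4 by -5.45 (adjusted p = 0.0113), where the size depends on the prior count of the fit because 1 group is at or near 0 counts. Among the genes that fell or passed at less than 2-fold it was found for Ddit4 by 0.86 (adjusted p = 0.0433), Ppp1r3b by 2.53 (adjusted p = 0.0142), Hmgn2 by -1.40 (adjusted p = 0.00367), Mical1 by 1.08 (adjusted p = 0.0062), LOC115488503 by -1.15 (adjusted p = 0.00826), Gm41844 by -1.18 (adjusted p = 0.0114) and Irs2 by 1.23 (adjusted p = 0.007).

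Among the list members named in the report were the secreted factors Ccl1 by -2.76 (adjusted p = 0.0114), Ccl5 by 2.79 (adjusted p = 0.00213), Il13 by -3.07 (adjusted p = 0.0238), Il4 by -4.63 (adjusted p = 0.0173) and Il21 by -3.21 (adjusted p = 0.013). On top of FK506 itself Il13 and Il4 fell by 4.87 and 4.42 on the log2 scale and Ccl5 rose by 1.98. By list, the share of 4.35% of all genes stands beside 13 of 20 Myc and ribosome biogenesis genes, 13 of 24 DNA replication and mitosis genes, 7 of 15 Th2 and Th9 genes and 6 of 24 sterol and fatty acid synthesis genes. Without the block it stands beside 0 of 20 Treg, 19 interferon gamma response, 19 homing receptor and 17 B-cell genes. It was also 0 of 19 myeloid and dendritic, 10 inhibitory receptor and 10 LXR genes. Of the 23 ATF4 and amino acid genes 5 differed (7 with the block), among them Ddit4 as given above, Nupr1 by 3.83 (adjusted p = 0.0336), Pck2 by 1.92 (adjusted p = 0.0212) and Slc7a11 by 3.67 (adjusted p = 0.0123), and of the 24 type I interferon-stimulated genes 4 did (also 4 with the block), among them Isg15 by 2.33 (adjusted p = 0.0494), Oasl1 by 3.83 (adjusted p = 0.00597) and Oas1a by 3.81 (adjusted p = 0.0212). The remaining genes were Gbp2b by -1.76 (adjusted p = 0.0289), Ier3 by 1.52 (adjusted p = 0.0304), Traf1 by 1.34 (adjusted p = 0.0131), Nod2 by 1.51 (adjusted p = 0.0232) and Smad2 by -0.50 (adjusted p = 0.046).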

How the results depend on the processing

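The count of 44 genes called depended on the fit. It was 0 when only the 6 libraries of both groups were fitted (smallest adjusted p = 0.103 in edgeR, 2676 genes at an unadjusted p under 0.05), 3 with replicates 2 and 3 alone, 438 with DESeq2 (273 higher and 165 lower, which is 62.3% higher against 84.1%), 11 with limma on log2(FPKM + 1) (45.5% higher), 84 with the filterByExpr filter (69% higher), 83 with genes above 0 in 1 library (69.9% higher) and 199 at an adjusted p under 0.1. It was 59 with limma on log2(FPKM + 0.1), 51 without TMM factors and 54 without the fold limit. All 44 genes were among those of DESeq2, of both other filters and of the looser threshold, 42 were called without TMM factors, 28 with limma on log2(FPKM + 0.1) and 7 with limma on log2(FPKM + 1). The 6-library fit leaves 4 residual degrees of freedom. The cause of these shifts, that to 0 included, was not tested.

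With 1 library left out the count ranged from 1 to 169. It was 1 without replicate 1 or without replicate 2 of *L. acidophilus*, 8 without its replicate 3, 12, 5 and 169 without replicates 1, 2 and 3 of anti-CD3 alone, 16, 29 and 52 without those of FK506, and 52, 12 and 13 without those of the combination. Of the genes in the tests of single genes, 54 passed the adjusted threshold in the main fit, and they did so in 5 to 19 of 22 alternatives (median 11). A3galt2 was the single one to pass with each library left out.

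With the replicate number as a block the count was 69 (71% higher), and it was 0 with the block in the 6 libraries alone (smallest adjusted p = 0.0959, 3370 genes at an unadjusted p under 0.05). The number of genes whose effect differed with and without FK506 was 1025, and it was 1578 with the block and 2380 with DESeq2 (45.8% higher against 31%). It ranged from 332 without replicate 2 of *L. acidophilus* to 1464 without replicate 2 of anti-CD3 alone. Among the genes named, the pairing changed no other call against anti-CD3 alone than those given in the report, and the changes in the difference with and without FK506 are given above.

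Of 3366 log2 fold changes of 153 genes under these settings, 2623 kept their direction and their side of the adjusted threshold, 602 no longer passed it, 129 passed it in addition and 12 changed sign. No gene that passed the threshold changed sign. With replicates 2 and 3 alone the values of Sesn2, Hk1 and Il4 were -0.035, 0.0045 and -0.26, and with the block in the 6 libraries that of Il4 was -0.0062. With 1 library left out Sesn2 ranged from -0.11 to 0.11, Il4 from -0.93 to 0.87 and Il21 from -0.64 to 0.078.

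Depth limits the 25 rises under 1 FPKM, of which 5 have no count in the untreated libraries, so their folds are lower limits. The 3-count floors behind them cover counting error only. The labels do not say whether libraries came from separate mice, no dose of bacteria is stated for these cells, and strain differs between the sources.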
